A study of Mus musculus with 4 samples.

Results

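Granulocyte progenitors that make the enzymes of neutrophil granules were taken from single-cell profiles of mouse bone marrow. The cells were chosen by their levels of named genes: a cell entered the group when Elane, Prtn3, Ctsg and Ms4a3 together gave at least 50 of every 10000 of its gene UMIs, a quantity called the granule sum here. A UMI is the tag of 1 captured mRNA molecule. Cells with 200 or more per 10000 from S100a8, S100a9, Ngp, Camp, Ltf and Lcn2 (the neutrophil sum) were left out, as were cells with 10 or more per 10000 from F13a1, Ms4a6c, Ccr2 and Ly86 (the monocyte sum). The rule was applied to cells with 500 or more genes seen and 1000 or more gene UMIs, of which no more than 10% were mitochondrial. These are called kept cells. It found 1928 granulocyte progenitors among 19758 kept cells: 814 in the control library, 776 in the library labelled Mll3 deleted and 338 in the library labelled Mll4 deleted.

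The study profiled CD45.2+ Kit+ bone marrow cells 10 weeks after transplantation, with RNA and surface antibodies read from the same cells (CITE-seq). Its 4 libraries, 1 per group and with 27166 kept cells in all, are a control, 1 with Mll3 deleted, 1 with Mll4 deleted and 1 with both deleted (Mll3/4 deleted). Mll3 and Mll4 are histone H3 lysine 4 methyltransferases, encoded by Kmt2c and Kmt2d, and the title names stem cell, myeloid and B cell identity as its subject. The genotype of the controls, the driver of the deletions, any inducing agent, and the number, age and sex of the animals are not given in the sources used here. With 1 library per group, every difference below is between libraries, carries no test and has no replicate check. Intervals are exact 95% intervals that cover counting error only, Poisson for expression and binomial for shares.

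Neutrophils arise from granulocyte-monocyte progenitors, which commit to the granulocyte fate under the transcription factors C/EBPα, C/EBPε and Gfi1, while Irf8 favours monocytes and dendritic cells. Committed cells first fill primary (azurophil) granules with myeloperoxidase and the serine proteases neutrophil elastase (Elane), proteinase 3 (Prtn3) and cathepsin G (Ctsg). They later switch to the secondary and tertiary granule proteins, such as lactoferrin (Ltf), lipocalin 2 (Lcn2) and cathelicidin (Camp), as they stop dividing.

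The promoters of Elane, Prtn3, Ctsg, Ms4a3 and Mpo are shown because these genes are active together in the chosen cells. Among genes outside the rule, Mpo stood highest above the other kept cells. Elane (chr10:79886247-79888215, plus strand) and Prtn3 (chr10:79874476-79883174, plus strand) are neighbours, Ctsg lies at chr14:56099881-56102574 (minus strand), Ms4a3 at chr19:11629496-11640851 (minus strand) and Mpo at chr11:87793581-87804413 (plus strand), all in mm10 with the GENCODE M21 annotation. Each sequence holds the 250 bases before the RefSeq gene start on build GRCm38.p6, read 5′ to 3′ on the gene's strand. Capitals mark the letters of a motif for PU.1 (GAGGAAG) or Runx (TGTGGT), on either strand. The windows are chr10:79886062-79886311 for Elane, chr10:79879417-79879666 for Prtn3, chr14:56102575-56102824 for Ctsg, chr19:11640852-11641101 for Ms4a3 and chr11:87793534-87793783 for Mpo. The RefSeq and GENCODE starts differ for Elane, Prtn3 and Mpo. By the GENCODE coordinates the Prtn3 window lies wholly inside the gene, and the Elane and Mpo windows run past the gene start.
Elane promoter: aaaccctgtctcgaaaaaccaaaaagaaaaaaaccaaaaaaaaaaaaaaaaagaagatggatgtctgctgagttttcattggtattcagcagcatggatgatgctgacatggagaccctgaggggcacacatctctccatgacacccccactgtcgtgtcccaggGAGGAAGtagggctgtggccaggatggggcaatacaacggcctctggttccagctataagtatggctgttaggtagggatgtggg
Prtn3 promoter: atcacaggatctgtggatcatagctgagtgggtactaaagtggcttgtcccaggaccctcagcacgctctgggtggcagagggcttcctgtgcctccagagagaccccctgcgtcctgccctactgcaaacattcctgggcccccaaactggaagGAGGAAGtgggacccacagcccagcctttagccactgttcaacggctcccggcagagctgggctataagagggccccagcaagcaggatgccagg
Ctsg promoter: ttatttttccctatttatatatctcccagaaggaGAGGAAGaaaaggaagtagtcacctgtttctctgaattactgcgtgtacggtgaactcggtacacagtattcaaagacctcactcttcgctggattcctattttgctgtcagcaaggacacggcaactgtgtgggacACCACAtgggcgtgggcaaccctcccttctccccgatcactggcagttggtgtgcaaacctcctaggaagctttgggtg
Ms4a3 promoter: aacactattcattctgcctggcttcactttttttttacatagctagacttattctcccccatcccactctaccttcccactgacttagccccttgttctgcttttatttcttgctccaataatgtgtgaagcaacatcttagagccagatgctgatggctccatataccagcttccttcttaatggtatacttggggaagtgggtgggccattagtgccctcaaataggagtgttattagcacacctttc
Mpo promoter: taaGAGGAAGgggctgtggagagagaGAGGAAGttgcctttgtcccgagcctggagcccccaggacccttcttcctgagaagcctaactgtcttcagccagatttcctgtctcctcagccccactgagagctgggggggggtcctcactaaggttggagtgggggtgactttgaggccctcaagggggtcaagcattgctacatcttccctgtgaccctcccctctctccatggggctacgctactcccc

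Counted from the RefSeq starts, the PU.1 letters stood 85 to 79 bases before Elane, 95 to 89 before Prtn3 and 216 to 210 before Ctsg. The Mpo window held them at 247 to 241 and at 224 to 218 bases, and the Ms4a3 window did not hold them. Of all 32851 promoter windows of this length, 10.6% held the PU.1 letters. The Runx letters were found only in the Ctsg window among these 5, 79 to 74 bases before the start on the reverse strand, where they read ACCACA, and 14.0% of all windows held them. The C/EBP letters searched (TTGCNNAA, which reads TTNNGCAA on the other strand) were in none of the 5 windows and in 9.56% of all windows. The short Myb letters AACNG, left in lower case, had 2 matches in Elane, 3 in Prtn3, 3 in Ctsg, 0 in Ms4a3 and 1 in Mpo, and 74.2% of all windows held them. A match describes letters in a window and is not a measured binding site.

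The libraries differed in depth. The median kept cell had 16052.5 gene UMIs in control, 17522 in the library labelled Mll3 (the Mll3-labelled library below) and 5221 in that labelled Mll4, and the granulocyte progenitors had 21880, 21994 and 7207. Levels are therefore given as CPM, UMIs per 1000000 gene UMIs, after summing over the granulocyte progenitors of a library: 18406958 UMIs in control, 17768025 in Mll3-labelled and 2520215 in Mll4-labelled cells. Each transcript is counted at its 3′ end without division by length, so levels are compared between libraries for 1 gene and not between genes. No barcode was shared between granulocyte progenitors of different libraries. Kmt2c was at 39.0 CPM (36.2 to 42.0) in control progenitors, 21.05 (19.0 to 23.3) in Mll3-labelled and 50.8 (42.4 to 60.4) in Mll4-labelled ones. Kmt2d was at 28.0 (25.6 to 30.5), 23.0 (20.8 to 25.3) and 24.6 (18.9 to 31.5), so its level was not lower in Mll4-labelled cells than in Mll3-labelled ones. A 3′ tag outside a deleted part does not check the deletion, and the labels are used as given. Xist, the X-inactivation RNA, was at 1009 CPM over the whole control library, 958 in the Mll3-labelled and 0.478 in the Mll4-labelled library, so sex of the animals and Mll4 deletion cannot be told apart.

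The quantities of the rule are a description, since they chose the cells. The median granule sum was 194 per 10000 UMIs in control, 208 in Mll3-labelled and 167 in Mll4-labelled cells. Elane, the elastase gene, was at 7846 CPM (7806 to 7887), 8297 (8254 to 8339) and 5725 (5632 to 5819.5). Prtn3 was at 6861, 8284 and 5213, Ctsg at 5459, 5313 and 4530.2, and Ms4a3, a membrane protein gene of granulocyte-monocyte progenitors, at 1228, 1208 and 1165. All 4 were lowest in the Mll4-labelled library. The median neutrophil sum was 9.57, 8.29 and 29.9 per 10000, and 5.70, 4.53 and 19.6 in erythroid cells of the same libraries, which should lack these genes. Those erythroid reference cells had at least 20 per 10000 from Klf1, Ermap, Rhd and Car1. Only 2 of the 338 Mll4-labelled progenitors had a neutrophil sum under 10, against 435 of 814 in control and 480 of 776 in the Mll3-labelled library. Erythroid cells of the Mll4-labelled library thus also carried more late neutrophil RNA, and secondary granule values below are read beside theirs. The median monocyte sum was 1.004, 0.75 and 2.65 per 10000, and 0 in the erythroid cells of each library, 95% of which were under 0.218, 0.252 and 0.897.

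The number of cells at the edges of the rule differed between its limits. Just under the granule limit, from 40 to under 50 per 10000, were 85 control, 89 Mll3-labelled and 30 Mll4-labelled cells, with Mpo at 2027, 2348 and 4499 CPM. Just inside it, from 50 to under 60, were 57, 44 and 21 cells, with Mpo at 2741, 3280.3 and 4661. The monocyte limit ran through denser ground. From 5 to under 10 per 10000 on the monocyte sum were 107 control, 100 Mll3-labelled and 95 Mll4-labelled progenitors, and from 10 to under 15, just outside, were 91, 59 and 96 cells. Their Mpo level barely changed across that edge: 5639, 5360.4 and 9489 CPM inside against 5599.6, 5349 and 9174 outside. At the neutrophil limit, 13, 25 and 8 progenitors lay from 150 to under 200 per 10000 and 6, 13 and 2 cells from 200 to under 250.

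Granulocyte progenitors made up 10.5% of kept cells in control (9.81 to 11.2%), against 12.2% in the Mll3-labelled (11.4 to 13.1%) and 5.98% in the Mll4-labelled library (5.38 to 6.63%). The log2 ratio of the shares to control was 0.22 for Mll3 and -0.81 for Mll4. The Mll3 value was -0.12 among cells with the second hashtag alone, so its direction depended on which cells were taken. The Mll4 value stayed below 0 under every alternative tried, but none of them moved the monocyte or neutrophil limit. How the share depends on those limits was not tested. In the Mll3/4 deleted library the same rule found 8 of 7408 kept cells, 0.108% (0.0466 to 0.213%), too few to describe.

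Cells with a granule sum of 50 or more, whatever their other sums, were of similar frequency in control and Mll4-labelled libraries: 1130 in control (14.5% of kept cells), 1112 in the Mll3-labelled (17.5%) and 806 in the Mll4-labelled library (14.3%). What differed was their make-up. Granulocyte progenitors were 72.0% of them in control (69.3 to 74.6%), 69.8% in the Mll3-labelled (67.0 to 72.5%) and 41.9% in the Mll4-labelled library (38.5 to 45.4%). Cells past the monocyte limit took 15.6% (13.5 to 17.8%), 12.1% (10.2 to 14.1%) and 43.9% (40.5 to 47.4%). Cells past the neutrophil limit took 12.3% (10.4 to 14.4%), 17.8% (15.6 to 20.2%) and 11.2% (9.08 to 13.5%). The Mll4-labelled library thus had fewer of these cells inside the rule and more on its monocyte side than control. As shares of all kept cells, the monocyte side was 2.27%, 2.11% and 6.27%, a log2 ratio of -0.10 for Mll3 and 1.47 for Mll4. The neutrophil side was 1.79%, 3.12% and 1.59%, a log2 ratio of 0.80 for Mll3 and -0.17 for Mll4. Cells past both limits, 1, 4 and 24, are counted on neither side. Among cells with at least 3000 UMIs the progenitor share was 10.6%, 12.05% and 6.75%. Hashtag antibodies, whose meaning the labels do not give, split the libraries: with the first hashtag alone the progenitor share was 9.95%, 12.5% and 6.54%, and with the second alone 11.0%, 10.1% and 5.72%.

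**Figure D1:**
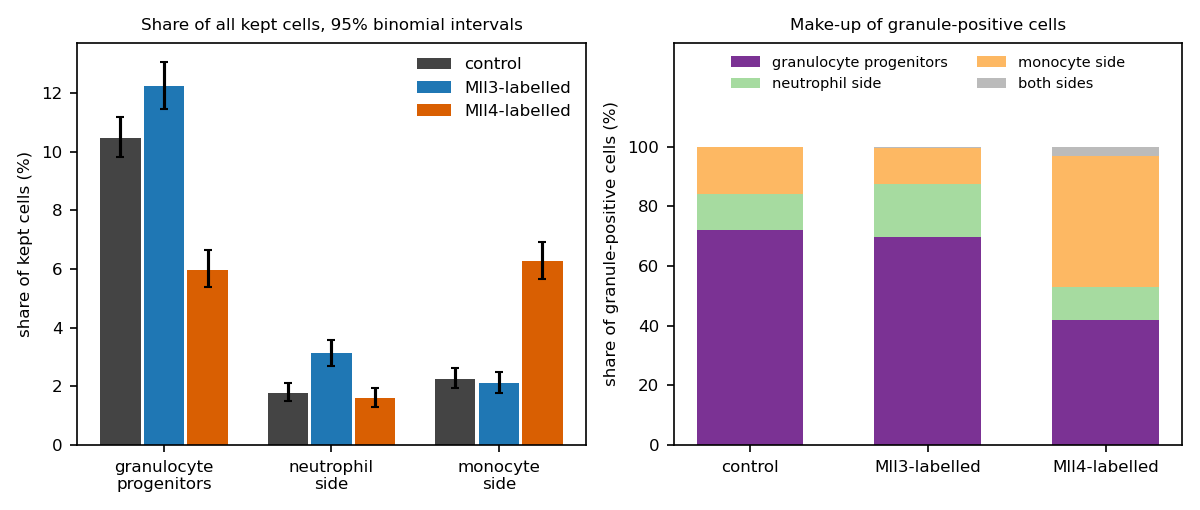
Left, percent of kept cells that were granulocyte progenitors, neutrophil-side or monocyte-side cells in the control, Mll3-labelled and Mll4-labelled libraries, with exact 95% binomial intervals of 1 library each. Right, the make-up of all cells with a granule sum of at least 50 per 10000, as stacked percents: granulocyte progenitors fill 72.0%, 69.8% and 41.9%.

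The genes that set granulocyte progenitors apart from the other kept cells of their library follow from how they were chosen and are given as a description. Mpo, the myeloperoxidase gene, ranked first among genes outside the rule in all 3 libraries. Its log2 ratio over the other kept cells was 4.00 in control, 3.84 in Mll3-labelled and 3.0 in Mll4-labelled cells. Prss57, a serine protease of the same granules, stood at 3.17, 3.30 and 2.64, Gstm1, a glutathione transferase, at 3.21, 3.12 and 2.95, and Cst7, the protease inhibitor cystatin F, at 2.85, 2.96 and 2.69. Genes of the rule were left out of this ranking. Of the 20 leading genes of control, 16 were among the first 20 of Mll3-labelled cells and 12 among those of Mll4-labelled cells. Among the first 100 were 20 and 18. These genes do not test the label of granulocyte progenitors, since granule genes chose the cells. In control, monocyte-side cells had Mpo at 5282 CPM against 5869.8 in the progenitors, and Prss57 at 99.3 against 242. Mcpt8, a basophil protease gene, ranked 10 in control, 56 in Mll3-labelled and 482 in Mll4-labelled cells. Prg2, an eosinophil granule gene, entered the control list through few cells: 1 cell held 683 of its 1252 UMIs.

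Other leading genes differed between the libraries without a shared direction. Alas1, the first enzyme of heme synthesis, which myeloperoxidase needs, was at 403 CPM in control, 352 in Mll3-labelled and 799 in Mll4-labelled progenitors, a log2 ratio to control of 0.98 for Mll4. Dmkn was at 84.3, 102 and 35.3 (log2 ratio -1.15 for Mll4), and Slc4a8, a bicarbonate transporter, at 62.1, 47.6 and 24.2 (-1.20 for Mll4). Plac8 was at 4866, 4376 and 3509, and Rgcc, a cell cycle regulator, at 437, 336 and 309.9. The Fc receptor gene Fcgr3 was at 147, 125 and 157, a Mll4 ratio of 0.09 that was -0.16 with TMM. The chemokine gene Ccl9 was at 138, 96.7 and 102, and Fgl2 at 74.3, 44.7 and 108.

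A gene was counted as past the fold when the log2 ratio of its CPM plus 5 reached 1 in either direction. All ratios below are of this kind, which understates changes of low genes. Over all measured genes outside the rule, 25 of 10779 (0.232%) were past the fold in Mll3-labelled against control progenitors, with a median ratio of -0.05. In Mll4-labelled against control progenitors 334 of 10119 (3.3%) were past it, with 261 higher (2.58%), 73 lower (0.721%) and a median ratio of 0.17. Of all measured genes, 36.8% had a ratio above 0 for Mll3 and 65.2% for Mll4. Counts of list genes above or below 0 are read beside these shares. Under TMM scaling, which assumes that most genes do not differ, the Mll4 median moved to -0.03 and the split to 102 higher and 178 lower. Mll4 ratios are therefore read against 0.17, and the TMM value is given where it changes the call or the direction of a gene described below. The Mll3 median moved from -0.05 to -0.0020, and Mll3 ratios nearest 0, such as that of Mpo, changed sign. A gene well under 5 CPM in the erythroid reference cells has a ratio near 0 there whatever its fold, so levels are printed for such genes in place of ratios.

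Among primary granule genes outside the rule, 11 of 15 on the list, 0 were past the fold in Mll3-labelled progenitors (median -0.13) and 1 in Mll4-labelled ones (median -0.17, or -0.42 with TMM). A count of 1 in 11 genes is too small to read against the 3.3% of all genes. Mpo was at 5869.8 CPM in control (5835 to 5905), 5708 in Mll3-labelled (5673 to 5743) and 8671 in Mll4-labelled progenitors (8556.5 to 8787). Its ratio was -0.04 for Mll3 (0.019 with TMM) and 0.56 for Mll4 (0.30 with TMM), so Mpo was above control in the same Mll4-labelled cells in which Elane, Prtn3 and Ctsg were below it. The same order held outside the rule's limits, with Mpo at 5282, 5002 and 8310 on the monocyte side and 3519, 3346 and 5880 on the neutrophil side. A UMI of Mpo was seen in 99.5%, 98.1% and 99.1% of the progenitors.

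The gene past the fold was Cyba, the p22phox subunit of the NADPH oxidase, at 349 (340.4 to 357), 392 (383 to 401) and 167 (151 to 183) CPM, a ratio of 0.17 for Mll3 and -1.04 for Mll4. Nkg7, a granule membrane protein of killer lymphocytes that is also read in these cells, was at 759.8 (747 to 772), 692 (680.2 to 705) and 412 (387 to 438), a ratio of -0.13 and -0.88, or -1.13 for Mll4 with TMM. Both were lowest in the Mll4-labelled library, and in erythroid reference cells the Mll4 ratio was -0.46 for Cyba and -0.94 for Nkg7. Srgn, the proteoglycan core that packs granule proteases, was at 2702, 2439.6 and 2048. Cst7 was at 249, 232 and 181, and Prss57 at 242, 259 and 225. Ctsc, the protease that activates the granule serine proteases, was at 33.5, 29.2 and 61.1, a ratio of 0.78 for Mll4 that was 0.86 in erythroid reference cells. Serpinb1a, an inhibitor of neutrophil proteases, was at 625, 571 and 699.9, and its Mll4 ratio of 0.16 became -0.10 with TMM. Lyz2, lysozyme, was at 219, 148 and 194, and Cd63, a granule membrane tetraspanin, at 480.0, 418 and 351.

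Of 7 measured secondary and tertiary granule genes outside the rule, 0 were past the fold for Mll3 (median 0.15, or -0.17 among cells with the first hashtag alone), against 0.232% of all genes. For Mll4 1 was past it, upward, against 2.58% of all genes, and 0 with TMM. The Mll4 median of 0.78 was 0.52 with TMM, 0.26 with cells thinned to 2000 UMIs, 0.45 without Scrublet doublets and 0.44 with the first hashtag alone. Chil3, a chitinase-like protein of neutrophil granules, was at 42.5 (39.6 to 45.6), 70.2 (66.3 to 74.2) and 96.0 (84.3 to 109) CPM, a ratio of 0.66 for Mll3 and 1.09 for Mll4 (0.84 with TMM). In erythroid reference cells the Chil3 ratios were 0.67 and 1.44, as large as in the progenitors. Fcnb, a ficolin of the later granules, was at 44.9 (41.9 to 48.1), 70.4 (66.6 to 74.4) and 30.6 (24.1 to 38.2) and thus highest in the Mll3-labelled library. Erythroid reference cells had Fcnb at 3.62, 7.75 and 12.4, and neutrophil-side cells at 1505, 1604 and 1666. Anxa1, an anti-inflammatory annexin, was at 212, 162 and 367, with a Mll4 ratio of 0.78 in the progenitors and 1.16 in erythroid reference cells. The part of free RNA in these values was not tested beyond the erythroid levels given.

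**Figure D2:**
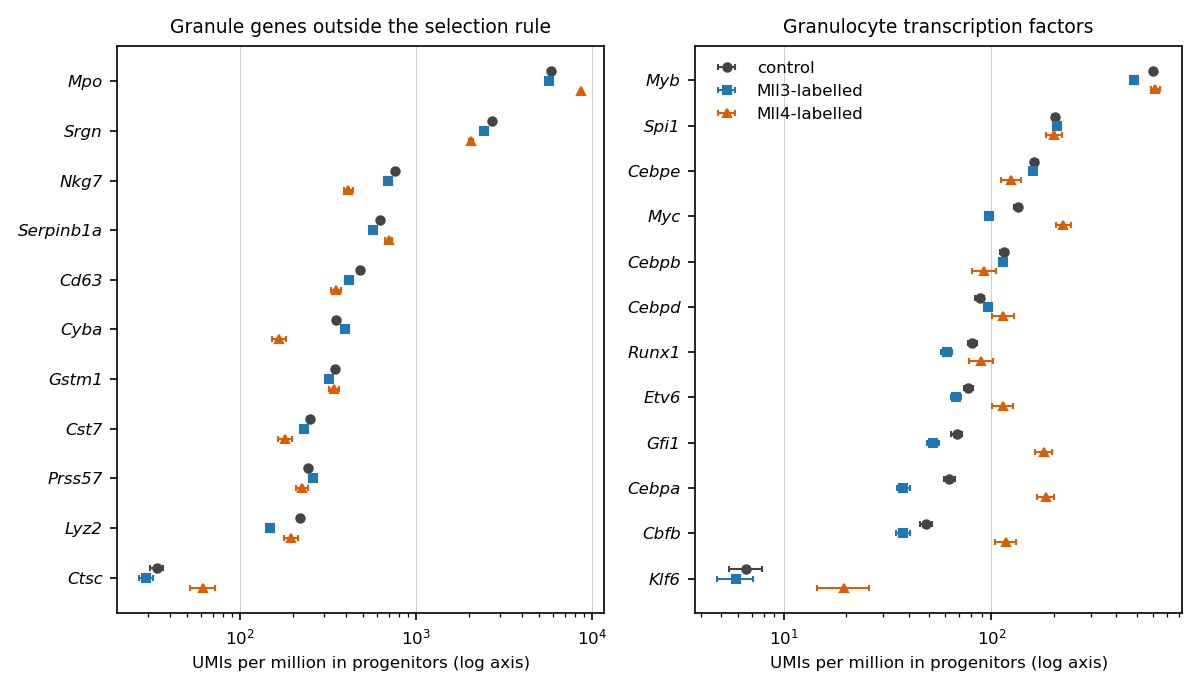
Levels in CPM (log axis) of primary granule genes outside the rule and of granulocyte transcription factors, 1 point per library with exact 95% Poisson intervals: control, Mll3-labelled and Mll4-labelled progenitors. Mpo (8671 against 5869.8), Cebpa and Gfi1 are higher and Cyba (167 against 349) and Nkg7 lower in the Mll4-labelled library than in control.

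Some transcription factors of the granulocyte path, Cebpa and Gfi1 foremost, were higher in Mll4-labelled progenitors, and others were not. Of 12 measured, 4 were past the fold, all upward, with a median ratio of 0.44 (2 and 0.19 with TMM), where 2.58% of all genes were past the fold upward. For Mll3, 0 of 12 were past it, 10 were below 0 and the median was -0.24 (-0.18 with TMM). Of all genes, 36.8% were above 0 for Mll3. Cebpa, the factor that opens the granulocyte-monocyte path, was at 62.7 CPM in control (59.1 to 66.4), 37.7 in Mll3-labelled (34.9 to 40.7) and 183 in Mll4-labelled progenitors (166 to 199.99). The 3 intervals did not overlap. The Cebpa ratio was -0.66 for Mll3 and 1.47 for Mll4, and the Mll4 ratio ranged from 1.22 to 1.67 over 14 alternatives. On the monocyte side Cebpa was at 70.4, 45.6 and 202, and on the neutrophil side at 35.6, 19.1 and 114, the same order in cells the rule left out. In erythroid reference cells it was at 1.22, 1.84 and 4.24.

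Gfi1, a repressor needed for neutrophil development, was at 67.9 (64.2 to 71.8), 52.5 (49.1 to 55.9) and 179 (162 to 196) CPM. Its ratio was -0.34 for Mll3 and 1.33 for Mll4, and the Mll4 ratio stayed past the fold in 14 of 14 alternatives. The monocyte side had lower Gfi1 levels, 20.9, 12.5 and 71.6, and the neutrophil side had 78.9, 59.97 and 288, again highest in the Mll4-labelled library. To set depth aside, each progenitor was thinned to 2000 UMIs, which left out 15, 51 and 3 shallower cells. A Cebpa UMI was then seen in 12.1% of control, 8.41% of Mll3-labelled and 30.1% of Mll4-labelled progenitors, against 0.166%, 0.563% and 2.04% of erythroid reference cells. Without thinning the Cebpa shares were 68.6%, 54.1% and 64.2%. A Gfi1 UMI was seen in 15.3%, 11.6% and 26.9% after thinning, against 0.0832%, 0.161% and 0.875% of erythroid reference cells.

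The other 2 factors past the fold for Mll4 were past it only without TMM. Cbfb, the partner of the Runx proteins, was at 48.2 (45.1 to 51.5), 37.5 (34.7 to 40.4) and 117 (104 to 132), a Mll4 ratio of 1.20 (0.95 with TMM) that was 0.998 in erythroid reference cells. Klf6 was at 6.57, 5.85 and 19.4 (14.4 to 25.7), a ratio of 1.08 (0.89 with TMM). Myc was at 134, 97.4 and 222, a Mll4 ratio of 0.71 that was 0.75 in erythroid reference cells. Cebpe, which drives the switch to secondary granules, was not among the higher genes, at 161, 158 and 125. Spi1, encoding PU.1, was at 202, 206 and 201, and Cebpb at 115, 114 and 92.1. Runx1 was at 80.9, 60.8 and 88.9 and Myb at 597, 487 and 616, with Mll4 ratios that were -0.12 and -0.22 with TMM. Cebpd was at 87.7, 96.2 and 114, and Etv6 at 77.5, 67.3 and 113. The factors thus did not move as 1 block: within the Mll4-labelled library Cebpa and Gfi1 were high while Spi1 and Cebpe were not.

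Of 10 measured growth factor receptor genes, 0 were past the fold in either comparison, with medians of -0.11 for Mll3 and 0.31 for Mll4 (0.09 with TMM). Kit, the stem cell factor receptor, was at 127 (122 to 133), 115 (110.0 to 120.1) and 231 (213 to 250.5) CPM, a ratio of 0.83 for Mll4 that was 0.68 in erythroid reference cells. Csf3r, the G-CSF receptor, was at 52.2, 44.5 and 40.5, and Csf1r, the M-CSF receptor, at 12.2, 11.4 and 15.9, against 68.5, 73.0 and 83.8 on the monocyte side. Csf2ra, a GM-CSF receptor chain, was at 71.3, 65.8 and 104. Csf2rb, whose reads may be split with the near-identical Csf2rb2, was at 28.1, 23.1 and 42.9. Ifngr1 was at 329, 329 and 548, with a Mll4 ratio of 0.72 that was 0.59 in erythroid reference cells. Flt3, the receptor of early lymphoid and dendritic progenitors, was low in all 3 libraries at 10.7, 4.22 and 3.97.

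Surface antibodies were counted per cell and were not used by the rule. The study profiled Kit+ cells, so a CD117 signal does not by itself set the progenitors apart. Median CD117 (Kit) counts were 294.5 in control, 309 in Mll3-labelled and 286 in Mll4-labelled progenitors, against 149, 199 and 100 in the other kept cells. Raw CD117 counts were thus similar in the 3 libraries. Their log2 ratio over the other kept cells of the same library was 0.98, 0.63 and 1.51, so a match or mismatch with the Kit RNA level cannot be read from them. CD48 was at 735, 608.5 and 632 (430, 357 and 187 in other cells), and CD34 at 22, 24 and 29 (8, 9 and 7 in other cells). The Fc receptors CD16/32 were at 94, 137 and 69.5, above the other cells in control and Mll3-labelled libraries (19 and 19) but below them in the Mll4-labelled library (107). CD11b was at 8, 9 and 6 (7, 5 and 191 in other cells) and Gr1 at 34, 45 and 46.5 (31, 34 and 209 in other cells). Both medians were thus below those of the other kept cells only in the Mll4-labelled library. Neutrophil-side cells had CD11b at 244, 281 and 175.5 and Gr1 at 288, 279.5 and 301, with CD117 down to 122, 124 and 174.5. Monocyte-side cells had CD16/32 at 289, 284 and 98.5, CD34 at 56, 72.5 and 38.5 and CD48 at 900, 888 and 800.5. Antibody counts depend on the staining of each library, so levels across libraries carry that limit.

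Within each library the progenitors were not uniform. They were split by granule sum into low, middle and high groups of equal size (272, 271 and 271 control cells, 259, 258 and 259 Mll3-labelled cells, 113, 112 and 113 Mll4-labelled cells). The rule used the granule sum, so the split is a description. Cd34, a surface sialomucin of early progenitors, went down from 307 to 161 to 45.7 CPM from low to high in control. The same series was 220.3, 108 and 16.4 in Mll3-labelled and 336, 155 and 62.3 in Mll4-labelled cells. Adgrg1, the adhesion receptor GPR56 of early progenitors, went from 259 to 97.3 to 30.5 in control, from 165 to 52.0 to 16.8 in Mll3-labelled and from 261 to 108 to 46.4 in Mll4-labelled cells. Angpt1 followed with 83.5, 25.9 and 7.14 in control, 76.6, 21.9 and 3.21 in Mll3-labelled and 79.1, 33.5 and 13.3 in Mll4-labelled cells. These early genes were thus lowest where granule RNA was highest, in each of the 3 libraries.

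Granule genes outside the rule ran the other way. Gstm1 went from 153 to 374 to 532 in control, from 141 to 351 to 476 in Mll3-labelled and from 148 to 399 to 501 in Mll4-labelled cells. Prss57 went from 105 to 226 to 411, from 107 to 237 to 453 and from 114 to 234 to 342. Nkg7 went from 371 to 693 to 1266, from 311 to 644 to 1174 and from 229 to 374 to 669. Fcnb, of the later granules, was concentrated in the high group: 4.23, 11.4 and 129 in control, 8.93, 25.4 and 195 in Mll3-labelled and 10.3, 11.2 and 76.9 in Mll4-labelled cells. Mpo was at 3756, 6488 and 7452 in control but already at 7026 in the low group of Mll4-labelled cells, with 9445 and 9656 after it.

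The factors had different slopes over the same split, whose groups were cut within each library. Cebpa was highest in the low group in each library: 83.5, 57.3 and 46.3 in control, 45.3, 34.7 and 33.1 in Mll3-labelled and 238, 172 and 130.0 in Mll4-labelled cells. Gfi1 ran upward with 41.5, 67.6 and 97.2 in control, 28.7, 55.8 and 74.5 in Mll3-labelled and 131, 198 and 211 in Mll4-labelled cells. In the low, middle and high groups alike, both were higher in the Mll4-labelled than in the control library. Cebpe ran from 91.2 to 165 to 232 in control and from 121 to 132 to 232 in Mll3-labelled cells. In Mll4-labelled cells Cebpe was nearly flat at 119, 125 and 130.0, over groups with a narrower range of median granule sum. Irf8, the monocyte and dendritic factor, dropped in the high group: 85.3, 96.4 and 22.5 in control, 84.0, 97.8 and 20.2 in Mll3-labelled and 61.9, 58.2 and 27.9 in Mll4-labelled cells. Surface proteins followed the early genes. Median CD117 counts were 345, 322 and 232 in control, 349, 331.5 and 267 in Mll3-labelled and 342, 285 and 243 in Mll4-labelled cells. Median CD48 counts were 974.5, 813 and 431, then 782, 731.5 and 431, then 1024, 701.5 and 385. CD11b ran the other way at low counts, from 4 to 16 in control and 4 to 22 in Mll3-labelled cells. It went from 5 to 7 in Mll4-labelled cells, whose high group had a lower granule sum.

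**Figure D3:**
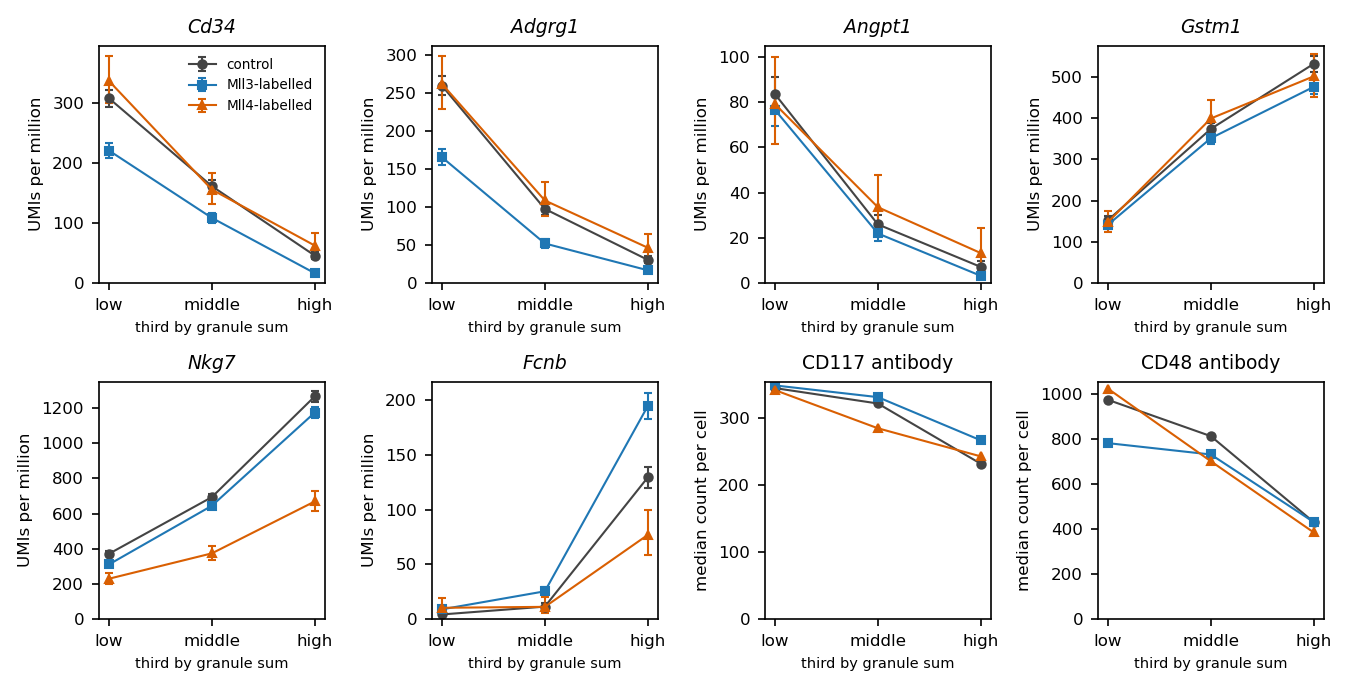
Levels in CPM of Cd34, Adgrg1, Angpt1, Gstm1, Nkg7 and Fcnb, and median antibody counts of CD117 and CD48, in progenitors split into low, middle and high groups of equal size by granule sum, with 1 line per library and exact 95% Poisson intervals on the levels. The groups are cut within each library and do not match in granule sum. Cd34 runs from 307 to 45.7 in control and from 336 to 62.3 in the Mll4-labelled library. Gstm1 runs from 153 to 532 and from 148 to 501.

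Over a list of stem and early progenitor genes, 0 of 18 measured were past the fold in Mll3-labelled progenitors. Below 0 were 16 of them, where 36.8% of all genes were above 0. The list median was -0.25 against -0.05 for all genes. Cd34 was at 175 (169 to 181) in control, 118 (113 to 123) in Mll3-labelled and 190.1 (173 to 208) in Mll4-labelled progenitors, a ratio of -0.55 for Mll3 and 0.12 for Mll4, or -0.14 for Mll4 with TMM. Adgrg1 was at 131, 78.6 and 143, a ratio of -0.70 for Mll3 and of 0.12 for Mll4, or -0.13 for Mll4 with TMM. Sox4 was at 127, 89.3 and 115, and Gata2, a stem cell and mast cell factor, at 23.2, 14.7 and 29.4. For Mll4 the same list had 7 of 17 above 0, a median of -0.13 (-0.36 with TMM) and 0 past the fold. Hoxa7, a homeobox factor of early progenitors, was at 31.8, 26.4 and 15.5, a Mll4 ratio of -0.85 that was -1.05 with TMM. The long-term stem cell genes Mecom (4.62, 5.63 and 5.56) and Hlf (13.3, 10.7 and 9.92) were low in all 3 libraries.

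Secretory cells fold granule proteins in the endoplasmic reticulum, and 0 of 20 folding genes were past the fold in either comparison. The median was 0.00 for Mll3 and 0.50 for Mll4 (0.24 with TMM, and 0.22 in erythroid reference cells without it). For Mll4 15 of 20 were above 0, where 65.2% of all genes were. Hspa5, the chaperone BiP, was at 769.8, 961 and 1276 CPM. Pdia6, a disulfide isomerase, was at 655, 654 and 1069, and Pdia4 at 112, 113 and 221 (0.95 for Mll4). Creld2 was at 44.7, 65.3 and 92.1 (0.50 and 0.97), and Herpud1, of the degradation branch, at 59.98, 58.3 and 121 (0.95 for Mll4). Not all genes of the list were higher: Ssr4, a translocon subunit, was at 1086, 1068 and 728, and Ddit3, the stress factor CHOP, at 12.6, 11.4 and 5.56.

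Cell cycle lists showed small shifts. For S phase the median was -0.10 for Mll3, with 16 of 20 below 0. For Mll4 it was 0.38, with 15 of 20 above 0 (0.13 with TMM, and 0.42 in erythroid reference cells). Of all genes, 36.8% were above 0 for Mll3 and 65.2% for Mll4. Mcm6, a replicative helicase subunit, was at 226, 188 and 521 (493 to 549.5), a Mll4 ratio of 1.19 that was 0.93 with TMM and 1.13 in erythroid reference cells. Dut ran the other way at 517, 508 and 329. For G2/M the Mll3 median was 0.14, with 19 of 20 above 0 (0.02 in erythroid reference cells), and the Mll4 median was 0.17, or -0.09 with TMM. Tacc3, a spindle protein, was at 37.5, 49.0 and 70.2, and Ube2c, the mitotic ubiquitin carrier, at 130.3, 162 and 96.0. Of 13 glycolysis genes, 0 were past the fold for Mll3 (median -0.05) and 2 for Mll4, both higher (median 0.43), where 2.58% of all genes were higher past the fold. With TMM the Mll4 count was 1 and the median 0.17. Pfkl, a phosphofructokinase, was at 46.6, 44.3 and 140.1, a Mll4 ratio of 1.49 that was 1.63 in erythroid reference cells. Hk2, a hexokinase, was at 36.9, 37.8 and 91.7, a ratio of 1.20 that was 0.96 with TMM and 1.15 in erythroid reference cells. Both ratios were thus of about the same size in cells of another lineage.

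**Figure D4:**
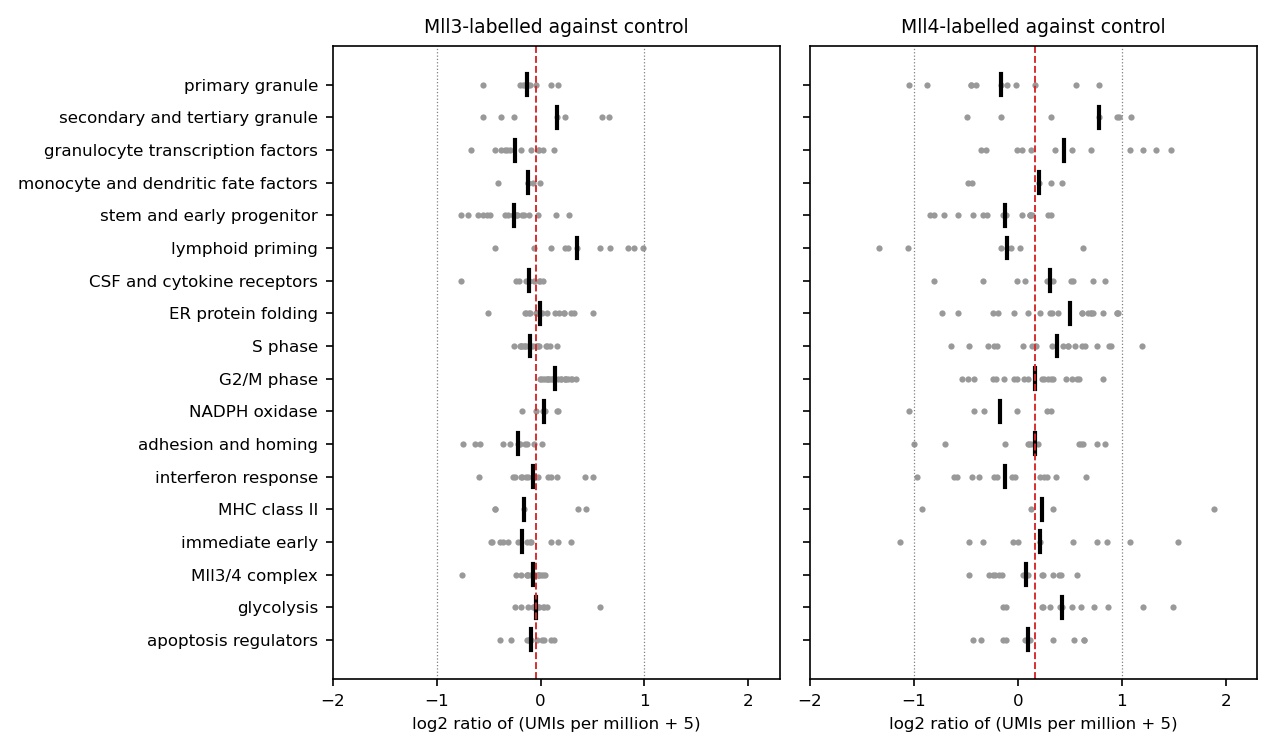
Log2 ratios to control (CPM plus 5) for the genes of each list in Mll3-labelled and Mll4-labelled progenitors: grey points are measured genes, black bars list medians, the dashed red line the median of all measured genes and the dotted lines the fold of 1 in either direction. Transcription factors (median 0.44) and endoplasmic reticulum folding genes (0.50) lie above the all-gene median of 0.17 for Mll4; with TMM scaling that all-gene median is -0.03 and list medians close to 0 can change sign.

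The monocyte and dendritic factor Irf8 was lower than on the monocyte side. It was at 70.2, 70.2 and 50.4 CPM in the progenitors against 489, 482 and 384 on the monocyte side. The neutrophil side had less Irf8 than the progenitors, at 28.3 in control and 19.1 in Mll3-labelled cells. The monocyte and dendritic fate list had medians of -0.12 for Mll3 and 0.20 for Mll4 (-0.06 with TMM), with 0 of 5 past the fold. On the lymphoid priming list 2 of 7 measured genes were lower past the fold for Mll4 (0.721% of all genes were). Cd52, a leukocyte surface glycoprotein, was at 208 (202 to 215), 223 and 79.4 (68.7 to 91.2), a Mll4 ratio of -1.34 in the progenitors and 0.17 in erythroid reference cells. Notch1 was at 17.0, 16.0 and 5.56 (3.04 to 9.32), a Mll4 ratio of -1.06. For Mll3, 0 of 11 lymphoid genes were past the fold and the median was 0.35, which was -0.07 among cells with the second hashtag alone.

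Among adhesion and homing genes, 11 of 12 were below 0 for Mll3 (median -0.21, 0 past the fold), where 36.8% of all genes were above 0. Itgal, the integrin LFA-1 alpha chain, was at 25.6, 14.7 and 10.3, a ratio of -0.63 for Mll3 and -0.998 for Mll4, just short of the fold, or -1.18 for Mll4 with TMM. Cxcr4, the receptor that holds immature granulocytes in marrow, was at 41.6, 22.7 and 48.4, a Mll4 ratio of 0.20 that was -0.038 with TMM. The Mll4 median of this list was 0.16, or -0.07 with TMM. On the interferon list, Ifitm3 was at 211, 139 and 105, a Mll4 ratio of -0.97 that was -1.22 with TMM. Psmb8, an immunoproteasome subunit, was at 653, 576 and 433, and the list medians were -0.07 for Mll3 and -0.13 for Mll4. The class II antigen presentation list had medians of -0.15 for Mll3 and 0.23 for Mll4 (0.0055 with TMM), and its members did not share a direction. H2-DMa, of class II antigen loading, was at 86.7, 62.5 and 43.2, a Mll4 ratio of -0.93 that was -1.16 with TMM, while Cd74, described below, was past the fold upward through 1 cell. H2-Aa and H2-Eb1, with under 50 UMIs over both libraries, had 24 of 33 and 21 of 27 of their Mll4-labelled UMIs in 1 cell. Of the immediate early genes, Jun was at 52.3, 39.5 and 162, a Mll4 ratio of 1.54 in the progenitors and 1.07 in erythroid reference cells. Ier3, another of them, was at 13.9, 10.1 and 3.57, a Mll4 ratio of -1.14. Their list had medians of -0.18 for Mll3 and 0.21 for Mll4 (-0.02 with TMM). The survival genes Bcl2 (62.5, 46.4 and 92.8) and Mcl1 (94.5, 92.5 and 149) were highest in the Mll4-labelled library. With TMM their Mll4 ratios were 0.29 and 0.38. Those of the death-promoting genes Bcl2l11 and Pmaip1 were 0.45 and 0.43, and that of the survival gene Bcl2l1 was -0.03. On the apoptosis list 6 genes were above 0 for Mll4 and 4 below, with a median of 0.10, or -0.10 with TMM.

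Mll3-labelled progenitors had 25 genes past the fold, 12 higher (0.111% of those measured) and 13 lower (0.121%). Among the lower ones, Selenom, a selenoprotein of the endoplasmic reticulum, was at 35.7 CPM in control and 7.60 in Mll3-labelled progenitors, a ratio of -1.69; erythroid reference cells had too little to compare, at 1.24 and 0.793. Cpa3, the mast cell carboxypeptidase, was at 101.05 and 33.1 (-1.48), and Mcpt8, the basophil protease, at 79.5 and 30.9 (-1.24). Both were concentrated in few cells. The top 5% of cells held 55.5% of Cpa3 UMIs in control and 82.0% in Mll3-labelled progenitors, and 50.7% and 62.1% of Mcpt8 UMIs. On the neutrophil side their ratios went the other way, 1.71 for Cpa3 and 2.58 for Mcpt8. Ifitm1 was at 102 and 39.5 (-1.26), and Gm2a, a lysosomal activator protein, at 95.7 and 40.4 (-1.15). In erythroid reference cells Ifitm1 was at 25.2 and 19.2 (-0.32), while Cpa3 (3.34 and 1.88), Mcpt8 (2.27 and 0.822) and Gm2a (5.74 and 2.45) were too low there to compare. Nefh, a neurofilament gene, was at 5.81 and 0.225 and differed by more in erythroid reference cells (38.9 and 0.499).

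Higher in Mll3-labelled progenitors were Pttg1, the securin gene, at 22.5 and 88.4 (1.76, and 1.48 in erythroid reference cells), and the small gene Lyrm7 at 1.41 and 8.89 (1.12 and 1.19). Gstp1, a glutathione transferase, was at 16.5 and 40.6 (1.09 and 0.91). These differences were thus of similar size outside the granulocyte line. Ly6k had no UMI in control and 95 in Mll3-labelled progenitors (5.35 CPM), at least 32.8-fold higher against a floor of 3 counts. Of the Ly6k UMIs 95.8% were in the top 5% of cells, and its ratio of 1.05 was 0.18 with the first hashtag alone and 1.92 with the second alone. The heat shock genes Hspa1a (4.89 and 19.2) and Hspa1b (5.43 and 21.3) are near-identical copies, and Hist1h2ap, Gm10076, Rps27rt and Nutf2-ps1 also share sequence with copies, so their values are uncertain. Several other calls rested on few cells. Of the Car1 UMIs, a gene of erythroid progenitors at 93.2 and 254, 93.6% were in the top 5% of Mll3-labelled progenitors, and its ratio of 1.40 was 0.03 without cells that Scrublet marked as doublets. For Pf4, a platelet chemokine at 10.5 and 42.2, 1 cell held 399 of 750 UMIs. Vpreb3, of early B cells, was at 3.86 and 14.97 with 94.4% of UMIs in the top 5% of cells. Of the 24 genes named by rule, 10 stayed past the fold in all 14 alternatives.

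In Mll4-labelled progenitors 73 genes were lower past the fold. Apoe, apolipoprotein E, was at 103 CPM in control (98.9 to 108), 109.6 in Mll3-labelled and 17.5 in Mll4-labelled progenitors (12.7 to 23.4), a Mll4 ratio of -2.27. The Apoe ratio was -0.47 in erythroid reference cells but -2.28 over all other kept cells, -1.95 on the monocyte side and -2.87 on the neutrophil side. Selenom was at 35.7, 7.60 and 4.76, and Gm2a at 95.7, 40.4 and 23.4, both lowest in the Mll4-labelled library; the 2 comparisons share the control library. Lgals1, galectin-1, was at 391 in control and 118 in Mll4-labelled progenitors (-1.68, and -1.04 in erythroid reference cells). Tnfsf13, the cytokine APRIL, was at 76.3 and 21.4 (-1.62 and -0.63). Mgst2, a microsomal glutathione transferase, was at 95.02 and 31.7 (-1.44), and Ifitm1 at 102 and 31.7 (-1.54 and 0.12). Rgs10, a G protein regulator, was at 48.7 and 14.7 (-1.45 and -1.03).

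Higher in Mll4-labelled progenitors were Gpr141, an orphan receptor, at 6.25 CPM in control and 54.4 (ratio 2.40), and Ctsf, a lysosomal cathepsin, at 4.13 and 40.9 (2.33). Erythroid reference cells had little of either, with Gpr141 at 0.278 and 2.88 and Ctsf at 0.835 and 1.53. Over all other kept cells the ratio was 2.23 for Gpr141 and 0.93 for Ctsf. Itga1, an integrin alpha chain, was at 5.43 and 34.5 (1.92). These 3 genes stayed past the fold in all 14 alternatives. Other higher genes were so in the erythroid line as well: Lyrm7 at 1.41 and 20.6 (1.999 and 1.82), Tceanc2 at 1.41 and 20.2 (1.98 and 1.76) and the ribosomal protein gene Rps29 at 3384 and 12622 (1.90 and 1.80). Hspa1a was at 4.89 and 52.8 (2.55 and 2.07). Cma1, the mast cell chymase, had no UMI in control and 197 in Mll4-labelled progenitors (78.2 CPM), at least 479.6-fold higher against a floor of 3 counts. Those UMIs lay in 3.85% of the cells, 96 of them in 1 cell, and the Cma1 ratio of 4.06 was 0.82 once cells with markers of other lineages were taken out. Cd74, the class II invariant chain, was at 0.761 and 16.3, with 33 of 41 UMIs in 1 cell.

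Calls in the progenitors can be set beside other cells of the same libraries, which share the control and Mll4-labelled libraries with them. Of the 261 genes higher in Mll4-labelled progenitors, 244 were measured in erythroid reference cells, 242 of these had the same sign there and 108 were past the fold there, where 179 of 9696 genes were. Of the 73 lower ones, 65 were measured there, 58 had the same sign and 11 were past the fold, where 19 of 9696 were. On the monocyte side 146 of 235 higher and 37 of 55 lower genes were past the fold in the same direction. Of all 8248 genes measured there, 295 were past it upward and 99 downward. On the neutrophil side the counts were 124 of 180 and 35 of 46, where 302 and 86 of all 5695 genes were. A gene under 5 CPM in control cells cannot reach the fold downward. Many differences between the libraries were therefore also seen in other cells. Of the 24 genes named by rule and of Cebpa and Gfi1, 21 of 26 stayed past the fold in all 14 alternatives.

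**Figure D5:**
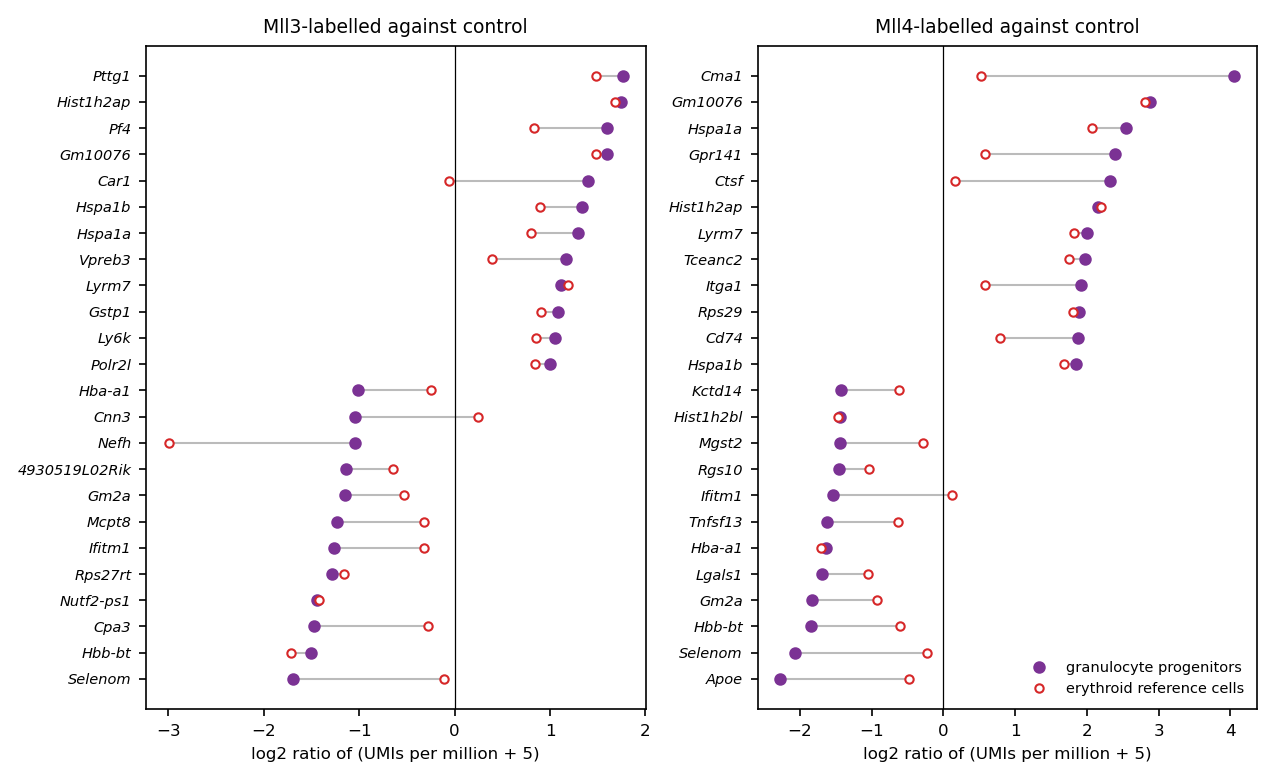
Log2 ratios to control (CPM plus 5) of the 24 genes named by rule in each comparison, filled purple points for granulocyte progenitors and open red points for erythroid reference cells of the same libraries. Gm10076 and Hist1h2ap have nearly the same ratio in both kinds of cell, Apoe is at -2.27 against -0.47 for Mll4, and genes near 0 CPM in erythroid cells, such as Selenom and Gpr141, have open points near 0 whatever their fold.

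Markers of other cell types were checked in the progenitors, and their part in the results above was not tested. Basophil and mast cell markers summed to 280 CPM in control, 146 in Mll3-labelled and 688 in Mll4-labelled progenitors, against 9.68, 5.67 and 29.8 in erythroid reference cells. Within this list Mcpt8 was at 79.5, 30.9 and 109.9 and Cpa3 at 101.05, 33.1 and 332, while Cma1 and Tpsb2 were at 0 in control and Mll3-labelled cells. Their summed level was thus highest in Mll4-labelled progenitors. The share of cells with at least 3 such UMIs was 54.4%, 35.3% and 31.7%. That cut was not adjusted for depth, with a median of 21880, 21994 and 7207 UMIs per progenitor. The Mll4-labelled share therefore cannot be compared with the others. In Mll4-labelled progenitors 70.4% of the Mcpt8 UMIs lay in the top 5% of cells. Eosinophil markers summed to 107, 89.8 and 80.9, most of it Prg2, seen in 2.5%, 3.4% and 2.4% of the cells. B cell markers summed to 50.5, 94.8 and 56.7 (14.1, 29.6 and 11.7 in erythroid reference cells). At least 3 such UMIs were seen in 6.76%, 11.1% and 2.07% of the cells, again without adjustment for depth. Erythroid markers summed to 232, 430 and 74.6, mostly Car1 and Car2, and megakaryocyte markers to 31.4, 57.9 and 59.1. T and NK cell markers summed to 763, 696 and 413, of which Nkg7 alone gave 759.8, 692 and 412. Monocyte markers outside the rule summed to 931, 1027 and 652, nearly all Ly6c2 (843, 940.2 and 577), which granulocyte progenitors also express. Dendritic markers summed to 192, 166 and 149.99, mostly Bst2, with Siglech and Cd209a at 0 in all 3 libraries. Late neutrophil markers outside the rule summed to 14.1, 10.8 and 32.5 in the progenitors and to 9.39, 9.56 and 22.7 in erythroid reference cells. Scrublet marked 110 control, 85 Mll3-labelled and 10 Mll4-labelled progenitors as doublets (13.5%, 11.0% and 2.96%), and these were kept except in the alternative that takes them out.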

How the data were processed

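CITE-seq libraries (RNA and antibody tags from the same cells, 10x Genomics 3′ chemistry) were deposited by the authors as raw UMI counts per gene or antibody and barcode. Per the submitters' processing notes, Cell Ranger 6.1.2 and mm10 were used. The tables held 32285 genes and 15 antibody features, 13 of them surface antibodies. Cells were kept and chosen by the rule in the text, with Python 3.11.15, numpy 2.4.6, scipy 1.17.1 and pandas 2.3.3. UMIs were summed per library, and genes with at least 50 UMIs over both libraries were compared as log2 ratios of UMIs per 1000000 (CPM) plus 5. Genes of the rule were left out of these comparisons. The fold step was tested on simulated data. Total depth was 174795636, 161119914, 36413830 and 86721050 gene UMIs in control, Mll3-labelled, Mll4-labelled and Mll3/4-labelled libraries.

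The named genes are the 12 largest ratios in each direction. The members and the lists were chosen with earlier results of these data known. B cell and erythroid reference cells had at least 20 per 10000 from their markers, and 32158 of 32285 genes were found in GENCODE M21. Doublets were marked with Scrublet (scanpy 1.11.5) and kept. Hashtag limits came from mixtures of 2 normal curves (scikit-learn 1.9.0). TMM factors came from edgeR 4.0.16 in R 4.3.3, and figures from matplotlib 3.10.9. Alternatives covered the granule and mitochondrial limits of the rule, the pseudocount, scaling, thinning to 2000 UMIs, hashtags, doublets, other-lineage markers and minimum UMIs. The neutrophil and monocyte limits were not moved in any alternative. Among the alternatives, a minimum of 3000 UMIs and the removal of cells with markers of other lineages were chosen after seeing the data. Hashtag subsets are cells of 1 library and not replicates. The Mll3/4-labelled library, with 8 such cells, entered no comparison.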

Additional observations from a re-analysis of the deposited data

How the results depend on the processing

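The share of granulocyte progenitors among kept cells, as a log2 ratio to control, was -0.12 for Mll3 among cells with the second hashtag alone and 0.37 without cells carrying markers of other lineages. For Mll4 it was -0.60 with the first hashtag alone and -1.30 without cells of other lineages. Genes past the fold numbered 42 for Mll3 with the first hashtag alone and 105 with a pseudocount of 1, and 742 for Mll4 with a pseudocount of 1; the cause of the hashtag value was not tested. In the Mll3 comparison Hba-a1 turned to 0.14 with a granule sum of at least 100, 0.12 without Scrublet doublets, 0.11 with the second hashtag alone and 0.12 without cells of other lineages. Pf4 turned to -0.28, -0.12 and -0.10 under the last 3 of these. With the second hashtag alone Vpreb3 turned to -0.15, the lymphoid priming list to -0.069 and the B cell marker list to -0.10. For Mll4 the dendritic marker list turned to 0.33 with a granule sum of at least 25 and to 0.024 with no minimum of UMIs. Of single-gene values, 155 of 868 moved and 8 reversed; of list values, 70 of 662 moved and 4 reversed. The Mll4-labelled progenitors hold 2520215 UMIs, so genes near 50 UMIs over both libraries rest on few counts there. No paired analysis was possible because each group has 1 library.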
